A study of Gasterosteus aculeatus with 16 samples.

Results

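The genes ENSGACG00000014852 and ENSGACG00000003030 are the pair that the study names cbln9, for cerebellin 9, in its list of genes that differed with maternal predator exposure. They are 2 of the 22456 gene models with an FPKM value (fragments scaled by transcript length and library size) and 2 of the 17440 genes with a logCPM value (log2 of CPM, the reads of a gene scaled by the library's reads in genes). Both were chosen from the difference of maternally-stressed embryos from embryos of control mothers. That difference is therefore given here as a description, without a test. Their relative abundance and their variation among clutches of the same maternal group did not choose them and were tested.

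Cerebellins are small secreted glycoproteins that carry a C1q domain and assemble into multimers. In mammals the founding member, Cbln1, is released by cerebellar granule cells and bridges presynaptic neurexins and the postsynaptic receptor GluD2, which holds the synapse together. Fish carry further members of the family. The study places cbln9 among genes of nerve cell differentiation and neurite growth. The levels below were measured in whole embryos, so they do not show in which cells the genes were transcribed.

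Threespined sticklebacks (Gasterosteus aculeatus) were compared at 3 days post-fertilization. All mothers were wild-caught, and their tanks were assigned to the groups at random. The tested embryos came from 8 clutches of mothers that were chased every day with a model sculpin. The others came from 8 clutches of unexposed control mothers. Each clutch had a different mother, and each library held the pooled RNA of 10 whole embryos of 1 clutch. Exposure was given to whole tanks of females. Which mothers shared a tank is not stated, so each clutch was taken as 1 independent sample. The first number in the clutch names, whose meaning is not given either, is 15 in 3 control clutches and 5 in another 2, which were likewise taken as independent. In whole-embryo RNA, more cells of a kind and more RNA per cell cannot be told apart.

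On the BROADS1 assembly, ENSGACG00000003030 lies on groupXX at 279326 to 280477 (locus length 1152 bases), and ENSGACG00000014852 lies on scaffold_1014 at 541 to 2461 (1921 bases). The locus of ENSGACG00000014852 is the only gene model on its scaffold, which is not placed on a chromosome group, whereas groupXX carries 932 models besides ENSGACG00000003030. Neither locus overlaps another model. The files give the outer limits of each locus and not its exons. The similarity of the sequences of the 2 genes was not tested, so how far reads of one could have been counted for the other is uncertain.

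Both genes were strongly transcribed. By mean FPKM over the 16 clutches, ENSGACG00000014852 (461 FPKM) ranked 274 and ENSGACG00000003030 (444 FPKM) ranked 290 among the 22456 models. By mean CPM, which does not correct for transcript length, they ranked 750 (200.3 CPM) and 868 (176 CPM) among 17440 genes. Between 1116 and 4186 reads per clutch stood behind ENSGACG00000014852 and between 1002 and 3723 behind ENSGACG00000003030, out of 8950867 to 12765406 reads in genes.

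In maternally-stressed embryos, ENSGACG00000014852 had 125 CPM in the lowest clutch, a median of 257 CPM and 339 CPM in the highest clutch, against 94.0, 150 and 210.1 CPM in embryos of control mothers. The groups overlapped: 6 of the 8 clutches of exposed mothers lay above every control clutch, and 2 control clutches lay below every exposed clutch. The mean was 251 ± 81.6 CPM in exposed clutches and 149 ± 42.4 CPM in control clutches (SD, n = 8 each), a ratio of 1.69. The log2 fold change fitted on logCPM was 0.72 (SE 0.20), and 13 of the 17440 genes (0.0745%), itself included, had a fold change at least as large. Nothing is read from that share, since the fold change chose the gene.

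ENSGACG00000003030 showed the same direction with a smaller difference. It had a lowest value of 104 CPM, a median of 204 CPM and a highest value of 298 CPM in exposed clutches, against 84.4, 149 and 205 CPM in control clutches. Here 4 of 8 exposed clutches lay above every control clutch, so the overlap was wider than for its partner. The means were 208 ± 69.0 CPM in exposed clutches and 145 ± 43.9 CPM in control clutches (SD, n = 8 each), a ratio of 1.43. The log2 fold change was 0.49 (SE 0.21), with 51 genes (0.292%) at or above it.

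The FPKM values gave the same order. ENSGACG00000014852 ranged from 296 to 828 FPKM with a mean of 566 ± 195 FPKM in exposed clutches, and from 222 to 527 FPKM with a mean of 356 ± 107 FPKM in control clutches. ENSGACG00000003030 ranged from 277 to 792 FPKM with a mean of 522 ± 186 FPKM in exposed clutches, and from 216 to 537 FPKM with a mean of 365 ± 112 FPKM in control clutches. On log2(FPKM + 1) the fold changes were 0.64 (SE 0.22) and 0.50 (SE 0.23). Of the 21028 models on this scale, 492 (2.34%) had a fold change at least as large as that of ENSGACG00000014852 and 538 (2.56%) one at least as large as that of ENSGACG00000003030. These counts depend on the constant added to FPKM. With 0.1 in place of 1 they were 692 and 890, and with 5 they were 230 and 268. The shares are thus not comparable with those on logCPM, which has another constant and other genes. The gap between the 2 fold changes was narrower on log2(FPKM + 1) than on logCPM.

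**Figure D1:**
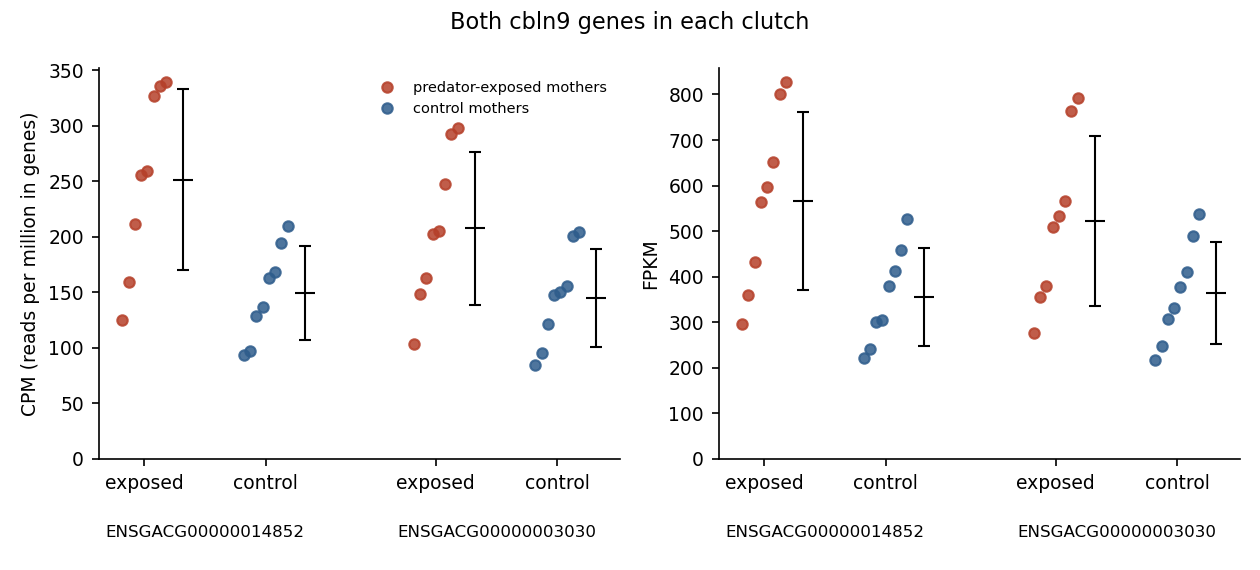
CPM (left) and FPKM (right) of both cbln9 genes, with 1 point per clutch and a black bar for the mean ± SD of 8 clutches. The exposed clutches of ENSGACG00000014852 lie between 125 and 339 CPM and the control clutches between 94.0 and 210.1 CPM, and the groups overlap for both genes in both units.

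The second number in the clutch names, also of unstated meaning, is 14 in control clutches alone and 10 in exposed clutches alone, so it cannot be told apart from exposure there. The numbers 5, 21 and 28 occur in both groups. For ENSGACG00000014852 the exposed clutches were higher under each of them, with 327 CPM in 1 exposed clutch and 163 CPM in 1 control clutch for number 5, 125 and 94.0 CPM for number 21, and a mean of 269 CPM in 3 exposed clutches and 195 CPM in 1 control clutch for number 28. For ENSGACG00000003030 the values of exposed and control clutches were 247 and 150 CPM for number 5, 104 and 84.4 CPM for number 21, and 221 and 201 CPM for number 28. The mean of exposed clutches was thus higher within every shared number, with 1 control clutch in each. For ENSGACG00000003030 under number 28 the clutches did not separate: exposed clutch 14_28 had 298 CPM, 26_28 had 202 CPM and 24_28 had 163 CPM, against 201 CPM in control clutch 20_28.

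Other transcripts also had higher means in exposed clutches. Their genes come from the study's list of genes that differed between these same clutches and were sorted into groups here. The mitochondrial genes were instead taken by their place on the mitochondrial genome. The 27 plasma protein genes, all with reads in all 16 clutches, summed to 5177 to 8142 CPM in exposed clutches and 3990 to 6064 CPM in control clutches. The 9 listed muscle genes, also detected in every clutch, summed to 388 to 582 CPM and 314 to 416 CPM. Structured non-coding RNAs (27 of 29 on the logCPM scale, 17 of them with reads in every clutch) summed to 35.3 to 726 CPM in exposed clutches and 32.9 to 263 CPM in control clutches, and the 16 mitochondrial genes with logCPM summed to 6462 to 18890 CPM and 5688 to 8399 CPM. The 3 embryonic hemoglobins summed to 2937 to 4631 CPM in exposed clutches and 1610 to 3660 CPM in control clutches, and the 10 gamma crystallins of the lens to 502 to 1814 CPM and 529 to 1152 CPM. The ranges of the groups overlapped for every one of these 6 lists. Their part in the difference of the cbln9 genes was not tested. A complete list of genes that define neurons or parts of the brain could not be matched to the IDs of the files. Some of the neural genes that the study names are given further on.

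Whether the 2 genes varied together was examined among clutches of the same maternal group. After the group means were removed, their logCPM values correlated at r = 0.98 over 16 clutches (Spearman rho = 0.97, permutation p = 1e-05 for each, the smallest that 100000 shuffles within groups can give). Without the 2 clutches farthest from the median (3_10 and 5_21), r was 0.98. Within the exposed clutches alone r was 0.98 (rho = 0.95, exact permutation p = 9.92e-05 for r, n = 8), and within the control clutches alone it was 0.98 (rho = 1, exact permutation p = 2.48e-05 for r, n = 8). A clutch that was high for one gene was high for the other in both maternal groups: among exposed clutches 6_21 was lowest for both and 14_28 and 3_10 were the highest 2 for both, and among control clutches 5_21 was lowest and 5_14 highest for both. Reads of one gene counted for the other would raise this r, and their part in it was not tested. Whether the 2 models are separate genes was not tested either.

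**Figure D2:**
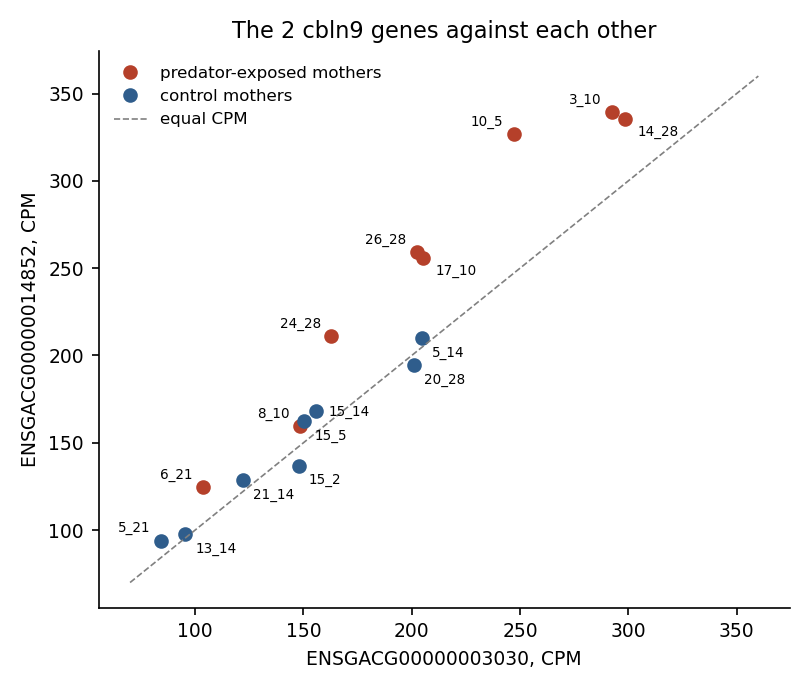
CPM of ENSGACG00000014852 (vertical axis) against CPM of ENSGACG00000003030 (horizontal axis), with 1 labelled point per clutch and a dashed line of equal CPM. Clutches of both groups lie along 1 band (r = 0.98 within groups), and all 8 exposed clutches lie above the line, against 6 of 8 control clutches.

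Few other pairs of well-expressed genes matched this r. Among the 5202 genes with a mean logCPM of at least 5, which form 13527801 pairs, 44 pairs, this one included, reached its r. These pairs share the same 16 libraries, so the count is a description. The SD of logCPM within groups was 0.48 for each, against a median of 0.16 over the 5202 genes, which placed ENSGACG00000014852 at rank 62 and ENSGACG00000003030 at rank 55. Among genes within 0.5 log2 units of their own level they ranked 10 of 659 and 9 of 764.

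For each member the other cbln9 gene was the most similar of 5201 genes, and a wide gap separated it from the next. The next was ENSGACG00000007396 for both, at r = 0.81 with ENSGACG00000014852 and r = 0.80 with ENSGACG00000003030 over the 16 clutches. That gene averaged 430.2 ± 60.7 CPM in exposed clutches and 383 ± 52.2 CPM in control clutches (SD, n = 8 each). The most opposed gene was ENSGACG00000000098, at r = -0.88 with ENSGACG00000014852 and r = -0.85 with ENSGACG00000003030. It averaged 55.1 ± 7.57 CPM in exposed clutches and 63.1 ± 6.63 CPM in control clutches. Of the 10 genes most like each member, counting the other cbln9 gene, 7 were shared by both lists. None but cbln9 is in the study's list of genes that differed, from which the names were taken. With median-of-ratios scaling or FPKM values the other cbln9 gene stayed first, and another gene took the next place.

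A further gene model stood out by its position. ENSGACG00000003015, which has no name in the sources used here, ends 4804 bases before ENSGACG00000003030 on groupXX and was singled out after its values were seen. It was far weaker, with 37 to 248 reads in exposed clutches and 52 to 229 reads in control clutches, or 2.79% to 10.4% of the reads of ENSGACG00000003030. After group means were removed, its logCPM had r = 0.82 with ENSGACG00000003030 (rho = 0.77) and r = 0.84 with ENSGACG00000014852 (rho = 0.83) over 16 clutches. Because it was picked for this pattern among many genes, the values are a description and no p is given. Without the 2 farthest clutches r was 0.70 and 0.75. With ENSGACG00000003030, r was 0.87 in the 8 exposed clutches alone and 0.75 in the 8 control clutches alone.

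Among the 551 other genes of groupXX with a mean of at least 5 CPM, this neighbour had the highest r with each cbln9 gene on log2(CPM + 1), and the next highest were 0.67 for both. Among all 12143 genes at that level it ranked 2 for ENSGACG00000014852 and 3 for ENSGACG00000003030. The other models near ENSGACG00000003030 had lower values on log2(FPKM + 1): r was 0.31 for the model 10347 bases before it, 0.24 for the model 27280 bases after it and -0.10 for the one 29642 bases after it. The neighbour showed no detectable difference by maternal group, with 10.4 ± 5.35 CPM in exposed clutches and 10.6 ± 4.63 CPM in control clutches (SD, two-sided exact permutation p = 0.860 on logCPM, n = 8 each). Whether its reads come from the transcript of a cbln9 gene was not tested.

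**Figure D3:**
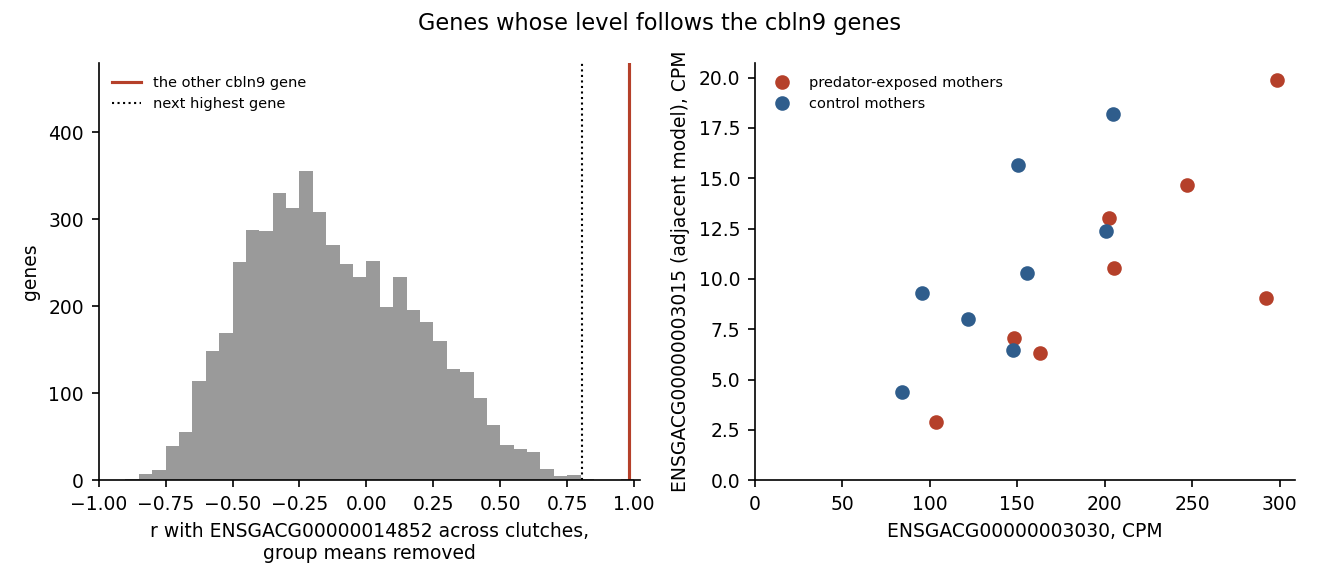
Left, the number of genes (of 5201) by their r with ENSGACG00000014852 across 16 clutches after removing group means, with a red line for the other cbln9 gene at 0.98 and a dotted line for the next gene at 0.81. Right, CPM of the adjacent model ENSGACG00000003015 (vertical axis) against CPM of ENSGACG00000003030 (horizontal axis), 1 point per clutch, in which the groups reach similar levels of the adjacent model (2.90 to 19.9 CPM in exposed and 4.38 to 18.2 CPM in control clutches).

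Relative abundance was compared per length, on FPKM within each clutch. Over all 16 clutches the log2 ratio of ENSGACG00000014852 over ENSGACG00000003030 was 0.04 ± 0.10 (SD, n = 16), ENSGACG00000014852 was higher in 11 of 16 clutches, and the exact sign-flip permutation test gave p = 0.106. With each clutch left out in turn, the same exact permutation test gave p from 0.0308 to 0.200. Only the run without control clutch 15_2, which had the lowest ratio, fell below 0.05 (log2 ratio 0.05, p = 0.0308 by that exact permutation test). The direction depended on the measure of length: on CPM per base of locus, which includes introns, the log2 ratio was -0.58 (n = 16). The 2 locus lengths are fixed and lower the ratio of every clutch by the same amount, so no p is given for this value. The log2 ratio was also turned when ENSGACG00000014852 was set at the upper confidence bound of its FPKM, to -0.46 ± 0.087 (SD, n = 16), below 0 in all 16 clutches. Which gene was the more abundant is therefore not settled by these values. As a description, ENSGACG00000014852 was the higher gene on FPKM in 8 of 8 exposed clutches, with a mean log2 ratio of 0.12, and in 3 of 8 control clutches, with a mean of -0.03. This split belongs to the contrast that chose the genes and was not tested. The test over all 16 clutches averages the 2 groups, so it is not free of that contrast.

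The ratio of the reads themselves, with no correction for length, spanned 1.08 to 1.32 in exposed clutches (mean 1.21 ± 0.088) and 0.927 to 1.11 in control clutches (mean 1.03 ± 0.062; SD, n = 8 each). It was highest in exposed clutch 10_5 and lowest in control clutch 15_2, and of the exposed clutches 8_10 alone lay within the control range. The counting error of the log2 ratio was 0.03 to 0.06 per clutch, and its SD between clutches was 0.11 in exposed and 0.09 in control clutches. Reads amplified by PCR are not independent molecules, so the counting error given is a lower limit, and the 2 quantities were not tested against each other.

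**Figure D4:**
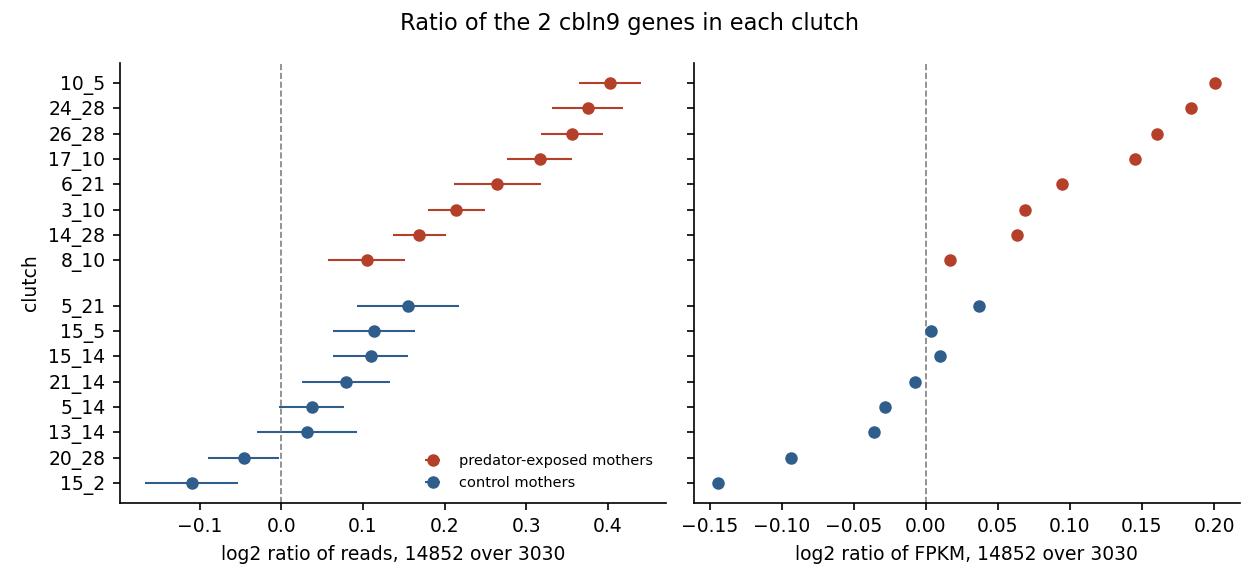
Log2 ratio of ENSGACG00000014852 over ENSGACG00000003030 in each clutch, from reads (left, bars show 1 counting SE each way) and from FPKM (right), with the clutches of exposed mothers above those of control mothers and a dashed line at a ratio of 1. All 8 exposed clutches lie right of the line in both panels. Of the control clutches, all but 15_2 and 20_28 do so on reads, and 3 of 8 do so on FPKM.

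The deposited FPKM of the 2 genes differed in how it sat within the confidence bounds given beside it. The FPKM of ENSGACG00000014852 exceeded its own upper bound in all 16 clutches, by a factor of 1.39 to 1.43, whereas that of ENSGACG00000003030 lay at 0.943 to 0.960 of its upper bound, inside the bounds, in all 16. A value above its upper bound in every clutch was found for 1921 of the 22456 models (8.55%). The level per length of ENSGACG00000014852, and with it the FPKM ratio of the pair, is less certain for that reason.

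Both genes were then set against 7 measures per clutch within the maternal groups, which gives 14 relations. The mean logCPM of the 27 plasma protein genes, secreted mostly by the liver and yolk syncytial layer, had the highest r: 0.70 with ENSGACG00000003030 (permutation p = 0.0044, adjusted p = 0.0619; rho = 0.76, adjusted p = 0.0224) and 0.62 with ENSGACG00000014852 (permutation p = 0.0137, adjusted p = 0.0640; rho = 0.69, adjusted p = 0.0359). Without the 2 clutches farthest from the median of that measure, r was 0.52 and 0.47. Taking out the ends of a range can lower r by itself, so this fall does not show what the relation rests on. Muscle genes followed, at r = 0.64 with ENSGACG00000003030 (adjusted permutation p = 0.0640; rho = 0.68, adjusted p = 0.0359) and r = 0.58 with ENSGACG00000014852 (adjusted permutation p = 0.0975; rho = 0.57, adjusted p = 0.104). Without the 2 farthest clutches these were 0.44 and 0.41. For muscle genes, r in the same order of genes was 0.79 and 0.74 in exposed clutches alone and 0.43 and 0.33 in control clutches alone. For plasma proteins it was 0.69 and 0.57 in exposed clutches alone and 0.71 and 0.70 in control clutches alone.

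No relation with Pearson's r passed an adjusted p of 0.05, and 3 of the 4 with plasma proteins and muscle genes passed it with Spearman's rho. Embryonic hemoglobins gave r = 0.41 and 0.43, gamma crystallins of the lens 0.24 and 0.31, structured non-coding RNAs -0.08 and -0.12, mitochondrial genes 0.05 and -0.05, and log2 reads in genes -0.21 and -0.25 for ENSGACG00000014852 and ENSGACG00000003030. None of these 10 relations passed an adjusted p of 0.05 with r or with rho. A p above the threshold does not show that the genes vary apart.

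Some of the neural genes that the study names were picked by hand, matched by its gene list and added after the data were seen. Ceruloplasmin and the microRNA miR-9a, which the study names together with cbln9, were left out of this pick. Neither was set against cbln9 on its own. The study names NEUROD4 and HES5, which were picked, among genes of eye and sensory organ development. The genes given here were chosen on the same contrast, so their levels are a description. The transcription factor gene NEUROD4 averaged 89.2 ± 10.3 CPM in exposed clutches and 76.2 ± 7.67 CPM in control clutches, and OTX2, which patterns the forebrain, midbrain and eye, averaged 17.2 ± 15.1 CPM and 11.3 ± 5.78 CPM (SD, n = 8 each). The growth factor receptor gene FGFR1 averaged 5.33 ± 1.64 CPM in exposed and 2.39 ± 0.519 CPM in control clutches, and the Notch target HES5, listed as 1 of several copies, 8.19 ± 2.25 CPM and 5.45 ± 2.84 CPM. Means were lower in exposed clutches for DBN1, which encodes the actin-binding protein drebrin (25.2 ± 4.23 CPM against 32.2 ± 3.89 CPM), and for the RNA-binding protein gene QKI (69.6 ± 15.5 CPM against 96.6 ± 16.5 CPM).

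Within the maternal groups none of these 6 genes was tied to cbln9 past the threshold. Over 12 relations with group means removed, r was between -0.42 (FGFR1 with ENSGACG00000003030, rho = -0.48) and 0.25 (NEUROD4 with ENSGACG00000003030, rho = 0.19). The lowest adjusted permutation p was 0.482 for r and 0.299 for rho, over 16 clutches. Without the 2 clutches farthest from the median of HES5, its r was -0.75 with ENSGACG00000014852 and -0.70 with ENSGACG00000003030. The same step gave -0.57 and -0.56 for FGFR1, so both negative relations grew. For OTX2, DBN1 and QKI, r became smaller in size with both cbln9 genes. For NEUROD4 it went from 0.20 to -0.029 with ENSGACG00000014852 and from 0.25 to -0.0014 with ENSGACG00000003030, a change of sign. These values without 2 clutches were not tested.

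**Figure D5:**
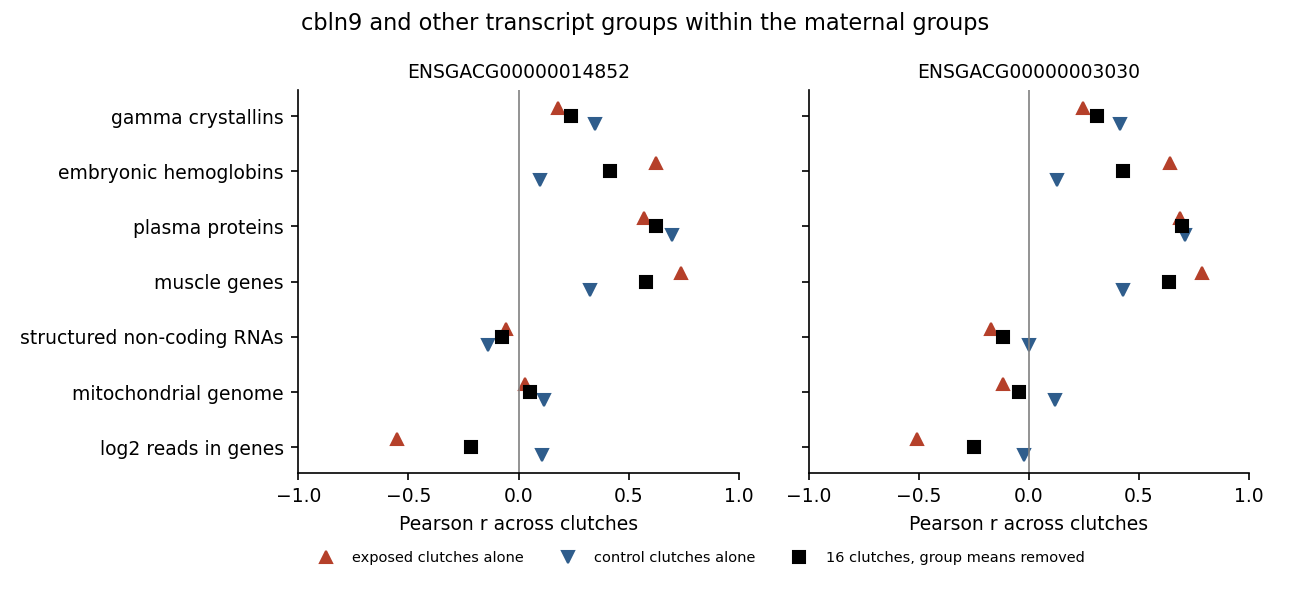
Pearson r of each cbln9 gene with 7 measures per clutch (rows), for exposed clutches alone (red triangles), control clutches alone (blue triangles) and all 16 clutches with group means removed (black squares). Plasma proteins lie at 0.62 and 0.70 and muscle genes at 0.58 and 0.64, and the black squares of sequencing depth and structured RNAs lie below 0.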

How the data were processed

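Whole embryos of 16 clutches (8 exposed, 8 control) at 3 days post-fertilization were measured by RNA-seq, with 10 embryos per pool. The authors selected RNA with oligo(dT), prepared stranded libraries, sequenced them in 1 pool, and aligned reads to BROADS1 with TopHat2 2.0.8. The deposited logCPM values, from edgeR, are log2(CPM + 2.77) for 17440 genes, after the authors removed genes with few reads. Whole reads were recovered from them to within 3.94e-09 of a read. The deposited FPKM values and their bounds are from Cufflinks 2.1.1, which divides ambiguous fragments among loci. A count of 0 reads allows up to 0.235 to 0.335 CPM, for counting error only.

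The log2 fold changes were fitted with limma 3.58.1 in R 4.3.3 (intensity trend) on logCPM for 17440 genes, and on log2(FPKM + 1) for the 21028 models above 0 in at least 2 clutches. The pseudocount of 1, and the constant of 2.77 within logCPM, lower the changes of weak genes. In simulated data, the fit and the correlations were tested on known answers. Correlations used numpy 2.4.6, with ranks from scipy 1.17.1, on values with group means removed. Permutation tests were two-sided, and p-values were adjusted by Benjamini-Hochberg within each family of relations. Genes of like pattern were the 10 with the highest r among genes with a mean logCPM of at least 5.

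The members and lists were chosen with earlier results of these data known. The genes of the lists were named by the study from these clutches, and their sorting into lists was made here. The mitochondrial genes were instead taken by their place on the mitochondrial genome. Gene names are those of the paper's supplementary gene list, since the files hold IDs alone and 0 of them matched the reference table. Other cerebellins, C1q family members, their neurexin and GluD partners, and protein and promoter sequences are therefore not analysed here. Alternatives were FPKM values, median-of-ratios scaling, other pseudocounts and filters, the second number of the clutch name as a replicate block, CPM per base of locus, and each clutch left out in turn. The adjacent model, the neural genes, the averaging of clutches with the same first number and the relations of the read ratio were added after seeing the data.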

Additional observations from a re-analysis of the deposited data

Results flagged for a closer look

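Of 32 groups of 8 values tested for 1 value that stands apart, 2 did so, both in control clutch 15_2, and chance marks about 1 in 20 such groups. The CPM per FPKM of ENSGACG00000003030 was 0.445 in that clutch, against 0.380 to 0.410 in the other control clutches. The mean logCPM of the structured non-coding RNAs was 2.93 in it, against 1.86 to 1.98 in the others. The same clutch had the lowest ratio of the cbln9 genes (0.927 on reads).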

How the results depend on the processing

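The fold changes of both genes kept their direction under every alternative run, as a description only, since these same clutches chose the genes. With the second name number as a replicate block they were 0.70 and 0.47 on logCPM for ENSGACG00000014852 and ENSGACG00000003030, and with median-of-ratios scaling 0.80 and 0.58, which moved the median of all genes to 0.03, against -0.05 as deposited. With each clutch left out they spanned 0.63 to 0.85 and 0.39 to 0.62 on logCPM, and 0.55 to 0.77 and 0.40 to 0.61 on FPKM. The r of the pair spanned 0.97 to 0.98 with each clutch left out, 0.99 on FPKM and 0.98 with median-of-ratios scaling. The log2 ratio of relative abundance spanned 0.0316 to 0.0546 with each clutch left out (the highest without control clutch 15_2). It turned to -0.58 on CPM per base of locus, a fixed length that includes introns and shifts every clutch alike.

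With plasma proteins, r passed an adjusted p of 0.05 on FPKM (0.65 for ENSGACG00000014852 and 0.68 for ENSGACG00000003030, adjusted permutation p = 0.0410 for both) and with median-of-ratios scaling (0.70 and 0.74, adjusted permutation p = 0.0233 for both). With muscle genes it did so for ENSGACG00000003030 on FPKM (0.67, adjusted permutation p = 0.0410) and for both genes with median-of-ratios scaling (0.67, p = 0.0281, and 0.70, p = 0.0233). With each clutch left out, r of ENSGACG00000003030 spanned 0.62 to 0.72 for plasma proteins and 0.57 to 0.72 for muscle genes. The adjusted permutation p was 0.0403 to 0.161 for both. Plasma proteins with this gene passed 0.05 without 15_2 (r = 0.70), 5_14 (0.70) or 6_21 (0.72), and muscle genes without 15_2 (0.69) or 5_14 (0.72). For ENSGACG00000014852, r spanned 0.55 to 0.67 for plasma proteins (adjusted permutation p = 0.0583 to 0.161). For muscle genes it spanned 0.51 to 0.67 (adjusted permutation p = 0.0544 to 0.223), so no such run passed 0.05 for that gene. The cause was not tested. Near-0 relations changed sign: with median-of-ratios scaling, structured RNAs with ENSGACG00000014852 gave 0.0427 and mitochondrial genes with ENSGACG00000003030 gave 0.16. With each clutch left out, mitochondrial genes spanned -0.19 to 0.30 and -0.25 to 0.20, and structured RNAs -0.33 to 0.0775 and -0.37 to 0.0496, for ENSGACG00000014852 and ENSGACG00000003030. With clutches that share a first name number averaged, the fold changes were 0.76 and 0.52 and r of the pair was 0.98. This averaging left 13, 5 of them control, and was added after seeing the data. The log2 ratio of relative abundance was then 0.0583 (exact permutation p = 0.0483). Only control clutches were averaged, so the exposed clutches weighed more in it. Their mean log2 ratio was 0.12, against -0.03 in control clutches. That p is therefore not free of the contrast that chose the genes. With the same averaging, muscle genes with ENSGACG00000003030 gave r = 0.79 (adjusted permutation p = 0.0445), and mitochondrial genes with ENSGACG00000003030 gave 0.0409. Over all 14 relations, 241 values kept sign and side of the threshold, 13 passed it and 12 changed sign. Depth limits the adjacent model (37 to 248 reads per clutch) more than the cbln9 genes (1002 or more).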

Other observations

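The log2 ratio of reads of the 2 cbln9 genes was set against the same 7 measures within the maternal groups, a comparison added after seeing the data. None of the 7 relations passed an adjusted p of 0.05. The highest was with the mitochondrial genes, at r = 0.49 over 16 clutches (permutation p = 0.0742, adjusted p = 0.370; rho = 0.61, adjusted p = 0.146), and r was 0.35 without the 2 farthest clutches, 10_5 and 3_10. In the exposed clutches alone r was 0.73, and in the control clutches alone it was -0.06.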
